A study of Mus musculus with 24 samples.

Results

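The genes described here are transcription factors and markers of cerebellar granule neurons: *Neurod1*, *Neurod2*, *Zic1*, *Zic2*, *Etv1*, *Barhl1*, *Pax6*, *Cbln3* and *Calb2*. They were taken by name, as the transcript clusters (gene level) and probe sets (exon level) that carry 1 of these 9 symbols in the platform annotation. Of 23332 clusters 7 carried a member's symbol alone, and of 229581 probe sets 83 did. *Etv1* had 14 probe sets and no cluster of its own, since its cluster carries a second symbol, and *Calb2* was not analysed here. *Pax6* had 25 probe sets, *Barhl1* 15, *Zic2* 10, *Cbln3* 7, *Zic1* 6, and *Neurod1* and *Neurod2* 3 each. RNA came from *Usp15*-deficient and wild-type C57BL/6 mice at 1 month of age, from cerebellum and from skeletal muscle. Each genotype and tissue had 3 samples, hybridised to 12 Affymetrix mouse exon arrays in all. USP15 is a deubiquitinating enzyme, and the labels give neither the allele nor the tissues it reaches. The labels do not say whether the 3 samples of a group are 3 animals, so p-values measure only the spread between these samples.

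Granule neurons are small glutamatergic neurons of the inner cerebellar layer. Their progenitors leave the rhombic lip, divide in the external granular layer under Sonic hedgehog, stop dividing and migrate inwards. *Pax6* and the *Zic* genes are active in the progenitors and remain on in the neurons, *Neurod1* and *Barhl1* act in differentiation and survival, and *Etv1* belongs to the maturation program. NEUROD proteins are basic helix-loop-helix factors, which bind E-boxes, short sites of the form CANNTG. *Cbln3* encodes a secreted protein of the C1q family made by mature granule neurons.

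Start-site windows from RefSeq (GRCm38.p6) cover 250 bases before to 50 after each start, and 7 of the genes have at least 1 window there, 10 windows in all. The windows of the 3 genes with the highest cerebellum minus muscle difference at the gene level are shown with E-boxes in capitals, because the E-box is the site class of the NEUROD factors.
Neurod1 (chr2:79456587-79456886, minus strand): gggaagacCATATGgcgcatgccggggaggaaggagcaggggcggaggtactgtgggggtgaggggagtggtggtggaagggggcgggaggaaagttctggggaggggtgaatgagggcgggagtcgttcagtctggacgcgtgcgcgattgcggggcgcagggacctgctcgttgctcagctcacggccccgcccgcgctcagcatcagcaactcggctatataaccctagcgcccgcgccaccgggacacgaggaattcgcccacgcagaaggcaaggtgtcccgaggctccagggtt
Cbln3 (chr14:55884207-55884506, minus strand): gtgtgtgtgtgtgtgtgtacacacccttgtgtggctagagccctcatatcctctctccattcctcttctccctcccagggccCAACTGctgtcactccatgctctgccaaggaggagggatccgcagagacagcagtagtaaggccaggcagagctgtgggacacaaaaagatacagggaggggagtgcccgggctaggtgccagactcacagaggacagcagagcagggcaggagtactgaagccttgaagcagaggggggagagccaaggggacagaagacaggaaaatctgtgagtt
Zic1 (chr9:91365719-91366018, minus strand): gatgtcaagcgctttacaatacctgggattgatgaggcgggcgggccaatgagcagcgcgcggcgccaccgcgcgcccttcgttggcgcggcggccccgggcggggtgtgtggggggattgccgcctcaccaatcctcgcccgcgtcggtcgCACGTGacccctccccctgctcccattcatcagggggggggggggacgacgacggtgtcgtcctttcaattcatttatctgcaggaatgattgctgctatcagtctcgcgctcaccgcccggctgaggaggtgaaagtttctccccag
Each of the 3 windows held 1 match to CANNTG, a pattern that reads the same on both strands. Of the members' 10 windows 8 held at least 1 match, against 72.3% of all 32851 windows of this length. The form CAGATG, or CATCTG on the other strand, is contained in CANNTG and was in 2 of the 10 windows, 1 of *Neurod2* and 1 of *Etv1*, against 17.2% of all windows. These matches describe letters, and no binding was measured.

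The deposited values are log2 signals, on which a difference of 1 is a doubling. A group comparison passed when its adjusted p from limma, with Benjamini-Hochberg adjustment over all clusters or all probe sets, was under 0.05. Gene-level array medians were 6.09 to 6.17 for cerebellum and 5.41 to 5.51 for muscle, and the median cluster was 0.62 higher in cerebellum in each genotype. After quantile normalization this median difference was -0.02 in *Usp15*-deficient and -0.01 in wild-type mice. As a check of the labels, the *Usp15* cluster averaged 7.08 ± 0.10 in *Usp15*-deficient and 7.60 ± 0.08 in wild-type cerebellum, and 6.80 ± 0.07 in *Usp15*-deficient and 8.67 ± 0.25 in wild-type muscle (SD, n = 3 each). The genotypes did not overlap in either tissue, although the cluster did not pass in the fit over all clusters (adjusted p = 0.996 in cerebellum and 0.273 in muscle by limma). The skeletal muscle label was checked with *Acta1*, *Ckm*, *Tnnt3* and *Mb*, which were all lower in cerebellum, with a median log2 difference of -7.06 in *Usp15*-deficient and -7.09 in wild-type mice.

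All 7 member clusters were higher in cerebellum than in muscle, in both genotypes, and for each of them all cerebellum arrays lay above all muscle arrays, an order shown by 60.2% of all clusters in *Usp15*-deficient and 57.8% in wild-type mice. In *Usp15*-deficient mice 7 of 7 passed as higher, against 57% of all clusters, and in wild-type mice 7 of 7 passed, against 54.6% of all clusters. Since most clusters passed in this direction, the call alone says little of the members, and they were ranked by the size of the difference. *Neurod1* and *Cbln3* had the largest differences, *Zic1* and *Pax6* followed, *Zic2* and *Neurod2* were lower, and *Barhl1* had the smallest. The median over the 7 was 4.78 in *Usp15*-deficient and 4.62 in wild-type mice, beside 0.62 over all clusters. In bulk tissue fewer cells of a type and less RNA per cell cannot be told apart.

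*Neurod1*, the factor for granule neuron differentiation, had log2 signals of 10.73, 10.62 and 10.70 in *Usp15*-deficient cerebellum against 3.19, 2.56 and 2.87 in *Usp15*-deficient muscle. In the wild-type its signals were 10.55, 10.58 and 10.50 in cerebellum against 3.44, 2.71 and 2.87 in muscle. The 2 tissues lay far apart in both genotypes, and the cerebellum arrays were close to each other. The difference was 7.81 (SE 0.17, adjusted p = 7.77e-07) in *Usp15*-deficient and 7.54 (SE 0.20, adjusted p = 8.24e-07) in wild-type mice. Of all clusters, *Neurod1* included, 0.00857% were higher in cerebellum by at least as much in *Usp15*-deficient and 0.0214% in wild-type mice.

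*Neurod2*, its close paralogue, had 8.24, 8.01 and 8.0 in *Usp15*-deficient cerebellum against 5.27, 3.86 and 5.07 in *Usp15*-deficient muscle. Its wild-type values were 8.37, 8.04 and 8.0 in cerebellum against 5.07, 4.19 and 4.45 in muscle. The cerebellum arrays lay close together, while the muscle arrays spread, with an SD of 0.76 in *Usp15*-deficient and 0.45 in wild-type muscle. The difference was 3.35 (SE 0.36, adjusted p = 0.000378) in *Usp15*-deficient and 3.57 (SE 0.24, adjusted p = 4.53e-05) in wild-type mice.

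*Zic1*, a zinc finger factor of granule progenitors and neurons, had 11.0, 10.66 and 10.66 in *Usp15*-deficient cerebellum against 5.51, 5.10 and 5.12 in *Usp15*-deficient muscle. In the wild-type it had 10.87, 10.62 and 10.71 in cerebellum against 5.22, 5.31 and 4.39 in muscle. Replicate 1 was the highest cerebellum array in each genotype, and the lowest muscle value was that of wild-type replicate 3. The difference was 5.53 (SE 0.17, adjusted p = 1.90e-06) in *Usp15*-deficient and 5.76 (SE 0.25, adjusted p = 6.42e-06) in wild-type mice. *Zic2*, of the same family, had 9.55, 9.64 and 9.54 in *Usp15*-deficient cerebellum against 6.11, 5.82 and 5.98 in *Usp15*-deficient muscle. Its wild-type values were 9.46, 9.59 and 9.85 in cerebellum against 6.10, 5.98 and 5.94 in muscle. The *Zic2* difference was 3.61 (SE 0.11) in *Usp15*-deficient and 3.62 (SE 0.14) in wild-type mice, nearly the same in the 2 genotypes.

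*Barhl1*, a homeobox factor of the granule lineage, had 6.41, 6.39 and 6.37 in *Usp15*-deficient cerebellum against 5.24, 5.03 and 5.06 in *Usp15*-deficient muscle. In the wild-type it had 6.36, 6.41 and 6.34 in cerebellum against 5.23, 4.96 and 5.07 in muscle. The replicates were tight, and the tissues did not overlap. The difference of 1.28 in each genotype (SE 0.10 in *Usp15*-deficient and 0.12 in wild-type mice, adjusted p = 0.000105 and 0.000166) was reached in the same direction by 20.2% of all clusters in *Usp15*-deficient and 19.5% in wild-type mice, and after quantile normalization it was 0.60 and 0.61, still past the threshold. Of the 7 clusters it was the only one whose difference was within 1 of the median of all clusters.

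*Pax6*, a paired-box factor that marks the rhombic lip lineage, had 7.76, 7.36 and 7.38 in *Usp15*-deficient cerebellum against 2.70, 2.77 and 2.71 in *Usp15*-deficient muscle. Its wild-type values were 7.63, 7.26 and 7.43 in cerebellum against 2.76, 2.94 and 2.75 in muscle. The difference was 4.78 (SE 0.14) in *Usp15*-deficient and 4.62 (SE 0.14) in wild-type mice. *Cbln3* had 11.25, 10.93 and 10.99 in *Usp15*-deficient cerebellum against 4.92, 4.83 and 4.96 in *Usp15*-deficient muscle. In the wild-type it had 11.19, 11.01 and 11.12 in cerebellum against 4.80, 4.45 and 4.52 in muscle. The *Cbln3* difference was 6.15 (SE 0.12) in *Usp15*-deficient and 6.52 (SE 0.14) in wild-type mice. Replicate 1 was the highest cerebellum array of both genotypes for *Pax6* and *Cbln3*. For *Zic2*, *Pax6* and *Cbln3* the adjusted p lay between 5.64e-07 and 2.20e-06 in *Usp15*-deficient and between 4.73e-07 and 3.51e-06 in wild-type mice.

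*Etv1*, an ETS factor, was described by the median of its 14 probe sets on each array. It was 10.24, 10.06 and 10.24 in *Usp15*-deficient cerebellum against 6.48, 6.37 and 6.74 in *Usp15*-deficient muscle. In the wild-type it was 10.26, 10.06 and 10.44 in cerebellum against 6.40, 6.37 and 6.35 in muscle. The tissues did not overlap, and the difference was 3.65 in *Usp15*-deficient and 3.88 in wild-type mice, each with p = 0.1 in an exact two-sided permutation test, the smallest p that 3 arrays against 3 can give.

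**Figure D1:**
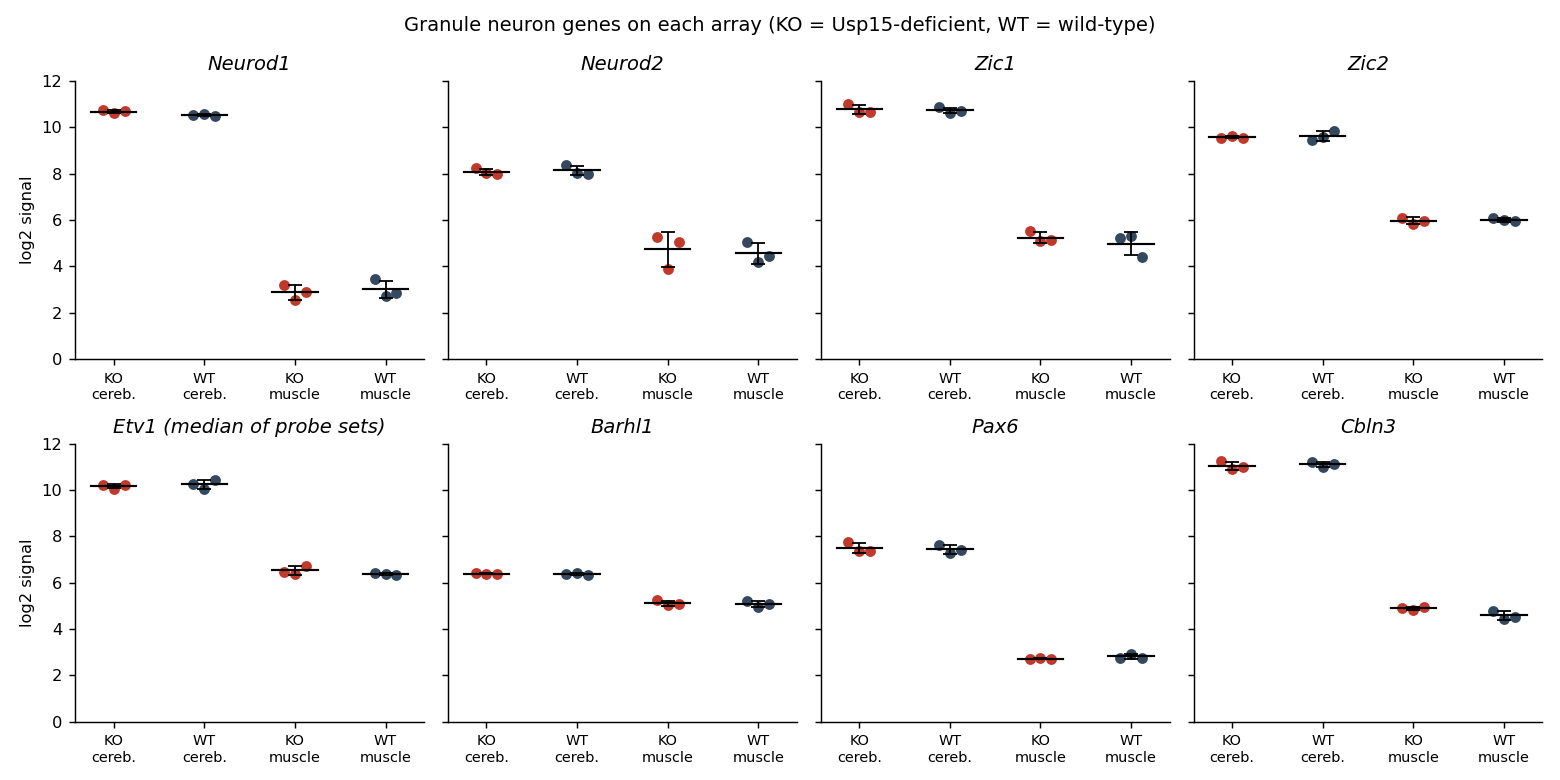
Log2 signal (vertical axis) of 8 granule neuron genes on each of the 12 arrays, as points, in *Usp15*-deficient (KO) and wild-type (WT) cerebellum and muscle. Horizontal lines are group means and bars are the SD (n = 3), and each gene's cerebellum points lie above all its muscle points while the *Usp15*-deficient and wild-type points of a tissue overlap, except for *Neurod1* in cerebellum and *Cbln3* in muscle.

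The probe sets showed how far the tissue difference was shared along each gene. All 83 probe sets had a higher mean in cerebellum in both genotypes, as did 70.4% of all probe sets in *Usp15*-deficient and 69.3% in wild-type mice. In *Usp15*-deficient mice 78 of 83 passed as higher, against 39.1% of all probe sets, and in wild-type mice 76 of 83 passed, against 35.4%. The median difference of the 83 was 3.77 in each genotype, beside 0.48 over all probe sets in *Usp15*-deficient and 0.47 in wild-type mice. All cerebellum arrays lay above all muscle arrays at 80 of the 83 in *Usp15*-deficient mice, against 46% of all probe sets, and at 78 in the wild-type, against 42.6%. Of the 83, 74 passed in both genotypes, and outside *Barhl1* and *Neurod2* 64 of 65 did. The 3 that passed in neither genotype were 2 of *Neurod2* and 1 of *Barhl1*.

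All 14 probe sets of *Etv1* passed in both genotypes, with differences of 2.69 to 4.82 in *Usp15*-deficient and 2.80 to 4.98 in wild-type mice, the narrowest range of the 8 genes. All 7 of *Cbln3* passed in both, from 4.35 to 7.09 in *Usp15*-deficient and from 4.65 to 8.33 in wild-type mice. The 3 probe sets of *Neurod1* lay between 4.96 and 9.30 in *Usp15*-deficient and between 5.19 and 8.54 in wild-type mice. These 3 genes had no probe set with a small tissue difference.

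*Zic1* and *Zic2* passed at every probe set in both genotypes, yet with a wide range. *Zic1* ran from 1.18 to 6.79 in *Usp15*-deficient and from 1.30 to 7.26 in wild-type mice, with probe set 5540613 at the low end in both. That probe set had 9.63, 9.10 and 9.02 in *Usp15*-deficient cerebellum against 8.16, 7.90 and 8.15 in *Usp15*-deficient muscle, so its muscle signal was high. *Zic2* ran from 0.91 to 6.35 in *Usp15*-deficient and from 0.85 to 5.91 in wild-type mice. Its 2 lowest, 5434865 and 4966325, each lost the call in 1 genotype after quantile normalization.

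*Pax6* spanned 0.90 to 7.36 in *Usp15*-deficient and 0.63 to 7.25 in wild-type mice over its 25 probe sets. The low end was 4458130, with 8.51, 8.61 and 8.63 in *Usp15*-deficient cerebellum against 7.81, 7.64 and 7.58 in *Usp15*-deficient muscle, and with 8.46, 8.48 and 7.97 in wild-type cerebellum against 7.95, 7.66 and 7.42 in wild-type muscle. It passed in *Usp15*-deficient mice (adjusted p = 0.00382) and was the only *Pax6* probe set that did not pass in the wild-type (adjusted p = 0.067). The lowest wild-type cerebellum value, of replicate 3, lay just above the highest wild-type muscle value, of replicate 1. Without that cerebellum array the probe set passed in the wild-type (0.79, adjusted p = 0.039), and after quantile normalization it did not (0.40, adjusted p = 0.289). The high end was 5486152 in both genotypes.

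*Neurod2* had a single probe set with a large difference. Probe set 4741421 had 10.07, 9.67 and 9.77 in *Usp15*-deficient cerebellum against 4.55, 2.83 and 4.97 in *Usp15*-deficient muscle, and 10.22, 9.72 and 10.10 in wild-type cerebellum against 4.58, 3.73 and 1.87 in wild-type muscle. Probe set 5520173 had 11.17, 11.18 and 11.27 in *Usp15*-deficient cerebellum against 11.30, 10.97 and 10.97 in *Usp15*-deficient muscle, and 11.34, 11.42 and 11.25 in wild-type cerebellum against 11.56, 11.05 and 11.11 in wild-type muscle. The first separated the tissues by 5.72 in *Usp15*-deficient and 6.62 in wild-type mice. The second was bright in both tissues, with differences as deposited of 0.13 in *Usp15*-deficient (adjusted p = 0.586) and 0.10 in wild-type mice (adjusted p = 0.733) and overlapping arrays, whereas after quantile normalization it passed with 0.67 (adjusted p = 0.020) and 0.66 (adjusted p = 0.047). The third, 4333274, differed by 0.74 in *Usp15*-deficient and 0.69 in wild-type mice and did not pass (adjusted p = 0.054 and 0.099).

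*Barhl1* differences were small over most of its 15 probe sets, with a median of 1.13 in *Usp15*-deficient and 1.11 in wild-type mice, and 12 passed in *Usp15*-deficient and 11 in wild-type mice. One probe set stood out, 5042584, with 6.04, 5.49 and 6.37 in *Usp15*-deficient cerebellum against 2.35, 2.37 and 2.79 in *Usp15*-deficient muscle, and 6.35, 5.92 and 5.99 in wild-type cerebellum against 2.10, 1.60 and 2.23 in wild-type muscle. Its difference was 3.47 in *Usp15*-deficient and 4.11 in wild-type mice, and the next of the gene was 2.42 and 2.04.

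**Figure D2:**
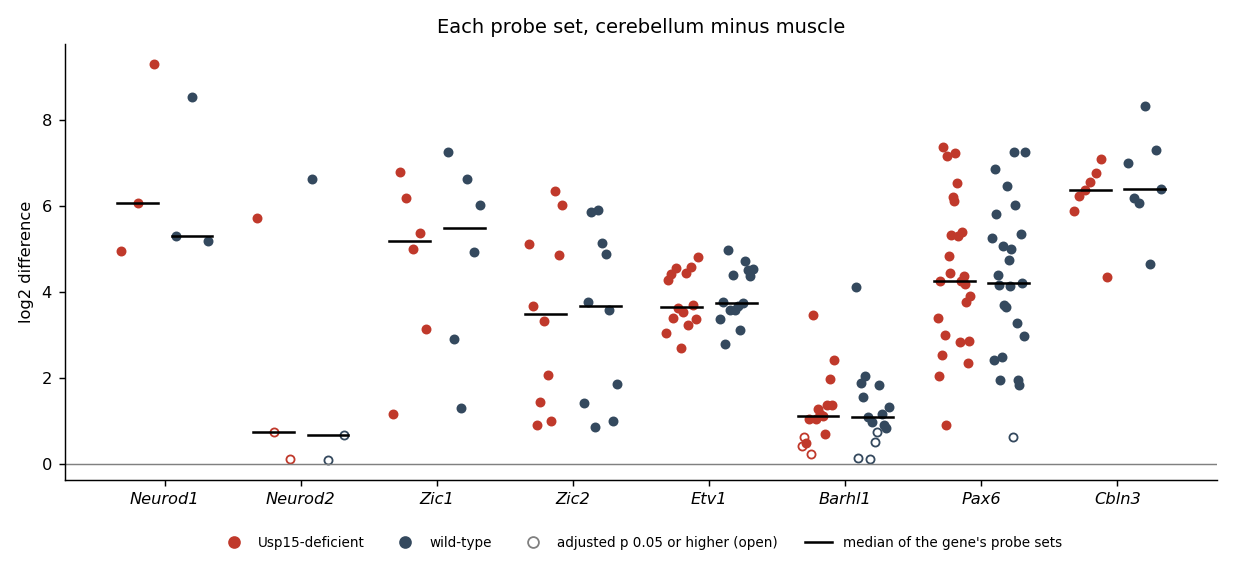
Log2 difference of each probe set, cerebellum minus muscle (vertical axis), by gene, in *Usp15*-deficient and wild-type mice. Filled points passed at an adjusted p under 0.05, open points did not, and black lines are the median of a gene's probe sets. Open points lie at *Neurod2* and *Barhl1*, with 1 at *Pax6* in the wild-type.

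The design sets *Usp15*-deficient against wild-type samples within each tissue. In cerebellum 0 of the 7 clusters passed, by limma and by the methods' t-test, and the *Usp15*-deficient minus wild-type differences lay between -0.05 and 0.14. By limma 0% of all clusters passed, 3.54% had an unadjusted p under 0.05, and 0 of the 7 members did. The smallest p was that of *Neurod1*, whose *Usp15*-deficient arrays (10.62 to 10.73) all lay above the wild-type arrays (10.50 to 10.58). The *Neurod1* difference was 0.14 with a 95% confidence interval of -0.05 to 0.33 (adjusted p = 0.996), and 5.85% of all clusters had every *Usp15*-deficient array above. The other 6 overlapped. *Barhl1* had the narrowest interval, from -0.16 to 0.20, and *Pax6* the widest, from -0.31 to 0.43, so that changes of more than 0.43 in either direction lay outside the interval of each of the 7 genes. *Etv1* differed by -0.07 (p = 0.5, exact two-sided permutation test).

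Muscle gave the same count. Here 0 of the 7 clusters passed, beside 0% of all clusters, and 0 of the 7 had an unadjusted p under 0.05, beside 3.09%. *Cbln3* had the smallest p, with 4.92, 4.83 and 4.96 in *Usp15*-deficient against 4.80, 4.45 and 4.52 in wild-type muscle, without overlap. Its difference was 0.32 (interval -0.01 to 0.64, adjusted p = 1.0), and 3.38% of all clusters had every *Usp15*-deficient array above. The muscle intervals were wide for *Neurod2* (-0.83 to 1.16), *Zic1* (-0.39 to 0.93) and *Neurod1* (-0.72 to 0.46). The *Zic1* difference of 0.27 was -0.02 without wild-type muscle replicate 3. *Etv1* differed by 0.16 in muscle (p = 0.2, exact two-sided permutation test). No detection calls were used, and whether the muscle signals stood above background was not tested.

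The genotype by tissue interaction asks whether the genotype difference was unequal in the 2 tissues. It passed for 0 of the 7 clusters, beside 0% of all clusters, with an unadjusted p under 0.05 for 0 members and 2.91% of all clusters. The lowest p was for *Cbln3*, whose interaction of -0.36 had an interval of -0.75 to 0.02. For *Neurod1* it was 0.27 (-0.33 to 0.87).

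**Figure D3:**
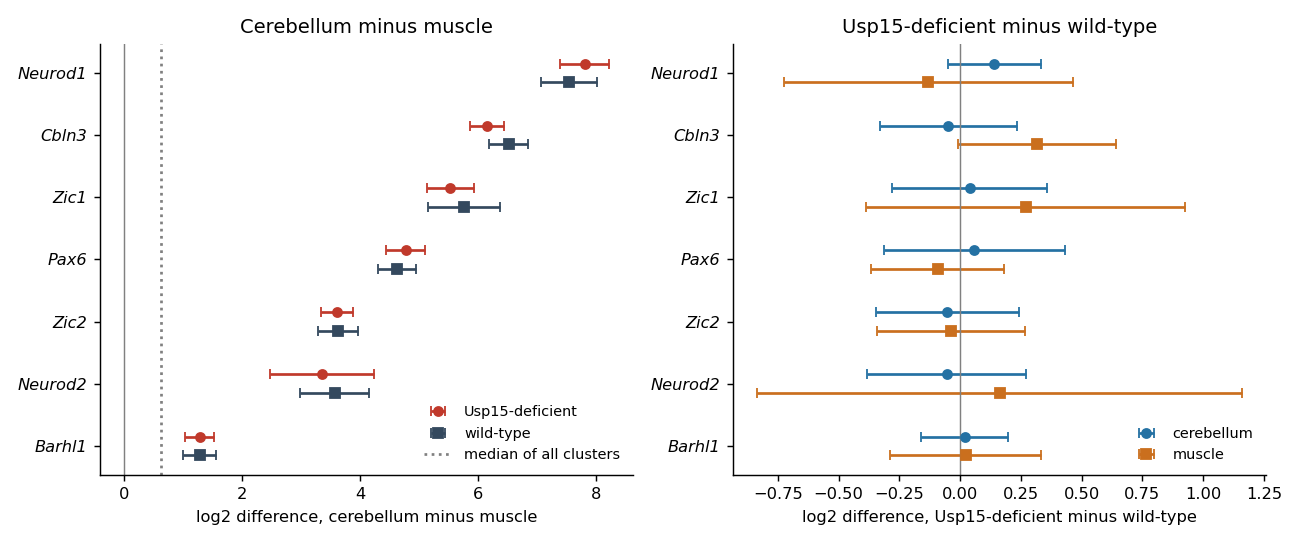
Log2 differences of the 7 member clusters (horizontal axes) with 95% confidence intervals. Left, cerebellum minus muscle in *Usp15*-deficient and wild-type mice, with the median of all clusters at 0.62 as a dotted line, and right, *Usp15*-deficient minus wild-type in cerebellum and muscle, where every interval crosses 0.

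At the exon level 0 of the 83 probe sets passed for genotype in cerebellum, beside 0.000871% of all probe sets, which is 2 probe sets, both of *Usp15* (4842622 and 4427559). An unadjusted p under 0.05 was found for 1 of the 83 in cerebellum, beside 3.49% of all. It was probe set 4852425 of *Barhl1*, with 5.92, 5.96 and 5.85 in *Usp15*-deficient against 5.56, 5.55 and 5.36 in wild-type cerebellum. Its difference was 0.42 (interval 0.04 to 0.80, unadjusted p = 0.034, adjusted p = 1.0 by limma), whereas the *Barhl1* cluster differed by 0.02. The same probe set separated the tissues weakly, by 0.50 in *Usp15*-deficient mice (adjusted p = 0.048) and by 0.13 in the wild-type (adjusted p = 0.681).

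Every *Usp15*-deficient cerebellum array lay above every wild-type array at 5 of the 83 probe sets, beside 5.47% of all probe sets, and below at 1, beside 2.77%. Those above were 3 of *Barhl1* and 2 of *Pax6*, and the 1 below was also of *Barhl1*. *Pax6* had the highest median among the genes with over 3 probe sets, 0.13, with 18 of 25 means above 0, and over all probe sets 59.1% of means were above 0. For the 83 together the split was 43 above and 40 below, with a median of 0.00, beside 0.05 over all probe sets. The 7 probe sets of *Cbln3* all lay between -0.06 and 0.08.

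In muscle the split of means was 42 above and 41 below 0, beside 52.7% of all probe sets above. Here 0 of the 83 passed, beside 0.000871% of all, the same 2 *Usp15* probe sets, and 2 had an unadjusted p under 0.05, beside 3.18%. The smallest p was that of *Pax6* probe set 4361281, with 1.80, 1.92 and 2.02 in *Usp15*-deficient against 2.94, 3.32 and 2.81 in wild-type muscle. All *Usp15*-deficient values lay below, and the difference was -1.11 (interval -1.62 to -0.60, unadjusted p = 0.00114, adjusted p = 1.0 by limma). In cerebellum this probe set was bright, with 9.48, 8.89 and 8.84 in *Usp15*-deficient against 9.24, 8.59 and 8.64 in wild-type arrays, and the genotypes overlapped. *Cbln3* probe set 4619825 had 1.73, 2.81 and 2.70 in *Usp15*-deficient against 0.84, 1.46 and 1.32 in wild-type muscle, a difference of 1.21 (interval 0.42 to 1.99, unadjusted p = 0.00802, adjusted p = 1.0 by limma). The *Usp15*-deficient arrays lay all above for 2 of the 83, beside 3.62% of all probe sets, and all below for 3, beside 3.13%. Both named probe sets had low signals in muscle, and in cerebellum they differed by 0.25 and -0.03.

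**Figure D4:**
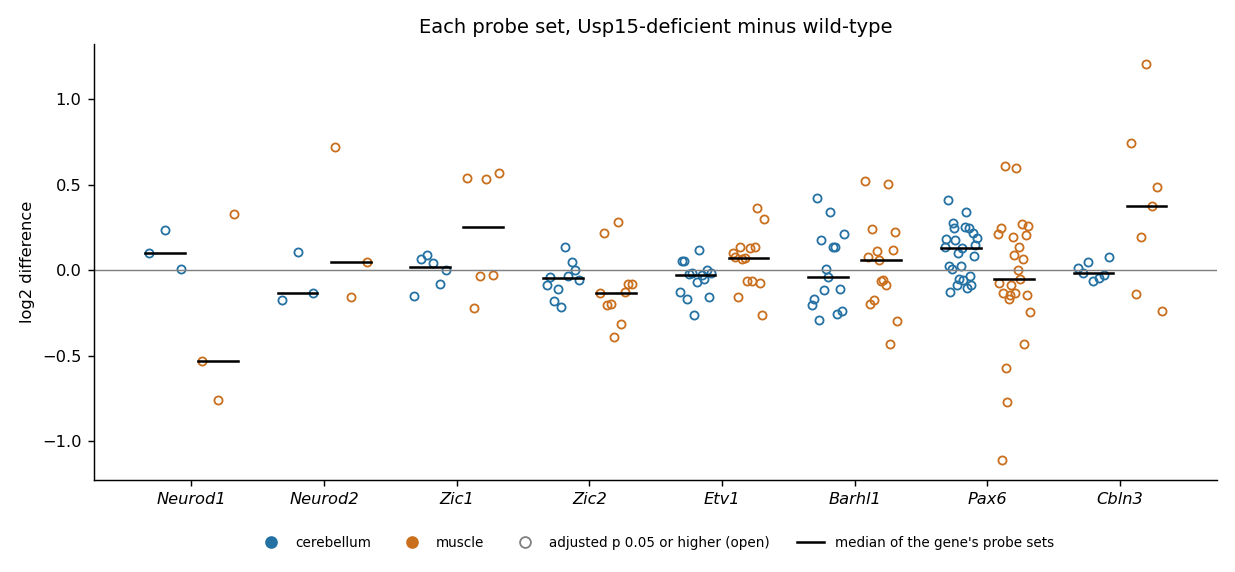
Log2 difference of each of the 83 probe sets, *Usp15*-deficient minus wild-type (vertical axis), by gene, in cerebellum and in muscle. All points are open because none passed at an adjusted p under 0.05, black lines are medians, and the muscle points spread wider, from -1.11 to 1.21, than the cerebellum points, from -0.29 to 0.42.

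To ask whether part of a gene changed against the gene as a whole in cerebellum, each probe set was set against its gene-level value on the same array. That value was not recomputed without the probe set. None of the 69 probe sets with a gene-level value passed, beside 0.00117% of 171159, and 1 had an unadjusted p under 0.05, beside 3.48%. That 1 was again 4852425 of *Barhl1*, by 0.40 (interval 0.08 to 0.73, unadjusted p = 0.0217, adjusted p = 1.0 by limma). The largest relative difference in the other direction was -0.31, also in *Barhl1*. In *Pax6*, the gene with the most probe sets, they ran from -0.19 to 0.35.

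Other genes of the lineage were read from lists by stage. Of 11 measured genes of mature granule neurons 11 were higher in cerebellum in both genotypes, beside 57% of all clusters in *Usp15*-deficient and 54.6% in wild-type mice. The 11 had a median of 5.02 in *Usp15*-deficient and 4.93 in wild-type mice. *Gabra6*, the GABA-A receptor subunit of these cells, differed by 7.92 in each genotype, *Vsnl1* by 6.92 in *Usp15*-deficient and 7.02 in wild-type mice, and *Chn2* by 5.38 and 5.78. Of 9 young postmitotic genes 7 were higher and 1 lower in both genotypes, with a median of 1.29 in *Usp15*-deficient and 1.19 in wild-type mice. The adhesion molecule *Cntn2* (4.36 in *Usp15*-deficient and 4.30 in wild-type mice) and *Astn1* (4.2 and 4.17), which acts in glia-guided migration, led it, and *Nfib* was lower (-0.39 and -0.54), a call lost in both genotypes after quantile normalization. That scaling also took the call of *Nhlh1* in *Usp15*-deficient mice (0.30, adjusted p = 0.290) and turned *Insm1*, not called as deposited (0.28 in *Usp15*-deficient and 0.15 in wild-type mice), to -0.33 (adjusted p = 0.091) in *Usp15*-deficient mice and to a lower call of -0.42 (adjusted p = 0.021) in the wild-type.

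Of 8 progenitor genes 3 were higher and 1 lower in *Usp15*-deficient mice, and 3 higher and 2 lower in the wild-type, with medians of 0.13 and 0.10, below the 0.62 of all clusters. Over all clusters 57% in *Usp15*-deficient and 54.6% in wild-type mice passed as higher. *Boc*, a Sonic hedgehog co-receptor, was higher by 1.94 and 1.99, and the cyclin *Ccnd2* was lower (-1.55 and -1.69). After quantile normalization 1 progenitor gene was higher in each genotype, *Boc*, with 3 lower in *Usp15*-deficient and 2 in wild-type mice, while all 11 mature genes still passed as higher. Markers of other cerebellar cells were mostly higher too. In both genotypes 8 of 8 Purkinje genes (7 after quantile normalization, without *Foxp2*), 7 of 7 astrocyte genes and 5 of 5 oligodendrocyte genes passed as higher, as did 5 of 6 interneuron genes, with *Pvalb* lower. The Purkinje median was 5.25 in *Usp15*-deficient and 5.57 in wild-type mice, above the mature granule median of 5.02 and 4.93. The astrocyte, oligodendrocyte and interneuron medians lay below it. Of 5 microglia genes 2 were higher in *Usp15*-deficient mice, and 3 higher and 1 lower, *Tmem119*, in the wild-type, and after quantile normalization 1 was higher and 2 lower in each genotype. By limma 0 genes of these lists passed for genotype in either tissue. In cerebellum 0 had an unadjusted p under 0.05, beside 3.54% of all clusters. In muscle 3 did, beside 3.09% of all clusters. They were *Mbp* and *Mag* of the 5 oligodendrocyte genes (1.05 and 0.41) and *Lgi2* of the 6 interneuron genes (-0.53), each with an adjusted p of 1.0 by limma. *Grm4*, a glutamate receptor of mature granule neurons, averaged 10.13 in *Usp15*-deficient and 10.29 in wild-type cerebellum with every *Usp15*-deficient array below, a difference of -0.17 (adjusted p = 0.996 by limma), and 3.05% of all clusters had that order. It was the lowest difference of the 11 mature genes, of which 5 had a higher and 6 a lower mean, with a median of -0.003.

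**Figure D5:**
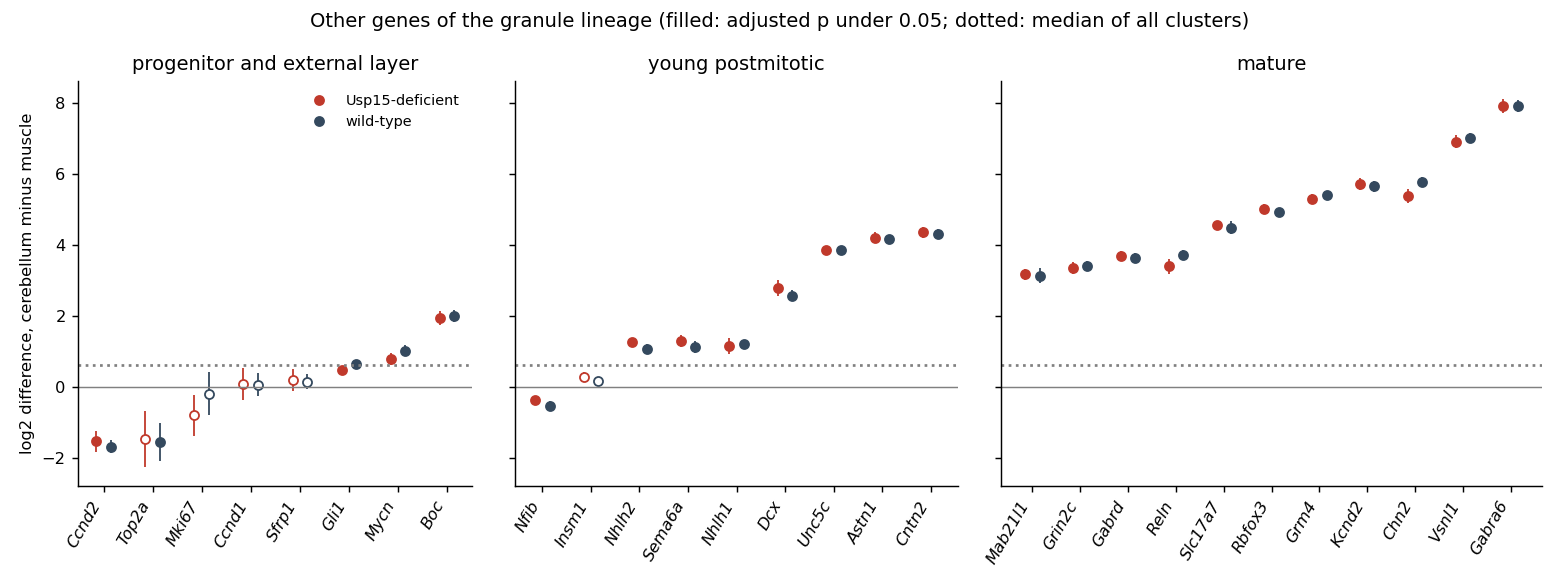
Log2 difference, cerebellum minus muscle (vertical axis), of progenitor, young postmitotic and mature granule lineage genes in *Usp15*-deficient and wild-type mice, with the SE as bars. Filled points passed at an adjusted p under 0.05, the dotted line is the median of all clusters (0.62), and all 11 mature genes lie above 3.

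Of 19 measured relatives of the members 15 were higher and 1 lower in cerebellum in each genotype. Over all clusters 57% in *Usp15*-deficient and 54.6% in wild-type mice passed as higher. The median of the 19 relatives was 1.24 in *Usp15*-deficient and 1.07 in wild-type mice. After quantile normalization 8 were higher and 3 lower in each genotype, and 9 passed in the same direction under both scalings. *Cbln1*, which pairs with *Cbln3* in granule neurons, differed by 7.67 in *Usp15*-deficient and 7.54 in wild-type mice. *Calb1*, the Purkinje calcium-binding protein related to *Calb2*, differed by 7.60 and 7.64. *Barhl2* differed by 3.56 in *Usp15*-deficient and 3.61 in wild-type mice, more than *Barhl1* in each genotype, a comparison of differences and not of levels. *Neurod6*, a forebrain paralogue, differed by 2.43 and 2.33, and *Zic4* by 2.26 and 2.29, and these 5 passed under both scalings. *Pvalb*, which is also made in fast muscle fibres, was lower (-3.0 and -2.94). By limma 0 of the 19 passed for genotype in either tissue. An unadjusted p under 0.05 was found for 0 in cerebellum, beside 3.54% of all clusters. In muscle it was found for 1, *Neurog1* (0.28), beside 3.09% of all clusters.

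Patterns most like the members were sought by Euclidean distance over the 12 arrays, after each gene was centred on its own mean, among genes with a cluster of 1 symbol. For *Neurod1* the nearest were *Calb1* (distance 0.62) and *Snap25* (0.68), and for *Cbln3* they were *Sv2b* (0.46) and *Car10* (0.55). *Zic1* lay nearest to *Faim2* (0.73) and *Sphkap* (0.75), *Zic2* to *Elovl2* (0.28) and *Cds1* (0.32), and *Pax6* to *Cnnm1* (0.41) and *Paqr8* (0.47). *Barhl1* lay nearest to *Arhgap33* (0.18) and *Slc22a6* (0.23). *Neurod2* had the least close neighbours, *Syt9* (1.03) and *B3gat2* (1.05). The mean of the 7 members was closest to *Ryr2*, *Cnr1*, *Cplx1*, *Cnnm1* and *Rph3a*, at 0.39 to 0.45. The neighbours of *Neurod1* had tissue differences of 7.64 (*Calb1*) and 7.79 (*Snap25*) in the wild-type, beside 7.54 for *Neurod1*. Many genes shared these patterns. At a Pearson r of 0.99 or higher, 1105 genes went with *Neurod1* and 1108 with the mean of the members. The fewest went with *Neurod2*, 21, and the most with *Cbln3*, 1138. Nearness by this measure does not mark a granule neuron gene, since *Calb1* is on the Purkinje list.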

How the data were processed

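Total RNA from 12 samples, 3 per genotype and tissue, was hybridised to Affymetrix mouse exon arrays. The authors deposited log2 signals of each array, summarised once per transcript cluster (gene level, 23332 clusters) and once per probe set (exon level, 229581). For software, background correction and normalization, the sources used here give nothing. Both levels come from the same arrays. The number of arrays limits the precision.

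Values were used as deposited. Linear models were fitted with limma 3.58.1 (R 4.3.3) using lmFit and eBayes. Tests were two-sided, with p-values adjusted by Benjamini-Hochberg over all rows and a threshold of 0.05, on the 6 arrays of each comparison, and the interaction on 12 arrays. Intervals are at 95%. Probe sets were also tested as their value minus the gene-level value, leaving out rows identical to their gene. Symbols come from the platform annotation, and rows with several symbols were not named. Per gene the text names the probe sets with the smallest p for genotype in each tissue and the largest and smallest tissue difference, and for the other genes the 2 nearest by pattern of each member, the 5 nearest to their mean and those of the lists. Zic2 5434865, Neurod2 4333274, Mbp, Mag, Lgi2 and Sln were singled out after their values were seen. The test code was also run on simulated data with independent noise and few changed rows. In these arrays most clusters differed by tissue, so that run does not vouch for the calls. The members and lists were chosen with earlier results of these data known. The array's genome build is not stated, and probe positions were not used.

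In cerebellum the deviations of same-numbered arrays of the 2 genotypes from their group means correlated at 0.218, 0.203 and 0.103 at the gene level, so the numbers may pair samples there. At the exon level these were 0.225, 0.194 and 0.0918. Alternatives were the replicate number as a block, a fit of all 12 arrays, the methods' t-test (row by row, equal variances; the study names it for its other measurements), quantile normalization, a trended and robust prior (statmod 1.5.0), leaving out the dimmest 25% and leaving out each array. The lists were recomputed under quantile normalization, an alternative chosen after seeing the data.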

Additional observations from a re-analysis of the deposited data

How the results depend on the processing

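The 7 tissue calls kept their direction and threshold in both genotypes under every alternative run, with adjusted p of at most 0.00566 in *Usp15*-deficient and 0.00582 in wild-type mice by limma or the methods' t-test. With all 83 probe sets tested, tissue calls ranged from 68 to 78 in *Usp15*-deficient and from 70 to 77 in wild-type mice, and without the dimmest 25%, where fewer were tested, they were 70 of 74 and 67 of 73. The lowest counts with all 83 tested, 68 and 70, were those after quantile normalization, against 78 and 76 as deposited. No member cluster or probe set passed for genotype under any alternative, nor any member cluster for the interaction, which was not run on probe sets. With the replicate number as a block, 77 probe sets passed for tissue in each genotype, against 78 in *Usp15*-deficient and 76 in wild-type mice without it, and the block changed no call at the gene level or for genotype. Directions were compared for the clusters and for the probe sets chosen by rule. A sign change between uncalled values was counted only where the value moved by at least its SE. By this rule the direction turned at *Barhl1* 4852425, whose wild-type tissue difference was -0.55 after quantile normalization (0.13 as deposited, not called in either). It also turned at the *Zic1* cluster, whose muscle genotype difference of 0.27 ranged from -0.022 (without wild-type muscle replicate 3) to 0.44 over the arrays left out, not called in any. Smaller sign changes were not counted, such as that of the *Pax6* cluster for genotype in cerebellum, -0.007 after quantile normalization and above 0 as deposited. Of the probe sets chosen by rule, *Neurod2* 5520173 gained a call in both genotypes after quantile normalization. Its difference was then 0.67 in *Usp15*-deficient (adjusted p = 0.020) and 0.66 in wild-type mice (adjusted p = 0.047). Calls were lost at *Zic2* 5434865 in *Usp15*-deficient (adjusted p = 0.073) and at 4966325 in wild-type mice (adjusted p = 0.142). Further probe sets lost their call under this scaling, and these are counted above but not named. *Pax6* 4458130 passed in the wild-type in 4 alternatives, with adjusted p between 0.021 and 0.045, and did not pass after quantile normalization (0.40, adjusted p = 0.289). The cause was not tested. Ranking neighbours by Pearson correlation kept 1 of the 19. Signal over background was not assessed.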

Other observations

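In cerebellum replicate 1 was the highest array of its genotype in both genotypes for 4 of the 7 clusters, *Neurod2*, *Zic1*, *Pax6* and *Cbln3*, and for 12.3% of all clusters. Among the members' probe sets this held for 34 of 83, or 41%, and for 13% of all probe sets. In muscle replicate 1 was highest in both genotypes for 4 of the 7 clusters, *Neurod1*, *Neurod2*, *Zic2* and *Barhl1*, beside 12.9% of all clusters, and for 22 of 83 probe sets, beside 12.3%. Replicate numbers come from the labels, which do not say what they stand for, and the pattern was noticed after the values were seen.

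Unipolar brush cells are excitatory interneurons of the same rhombic lip origin. Of their 4 measured genes 3 were higher in cerebellum than in muscle in both genotypes, beside 57% of all clusters in *Usp15*-deficient and 54.6% in wild-type mice. *Eomes* led the 3 (2.87 in *Usp15*-deficient and 2.86 in wild-type mice). After quantile normalization 2 stayed higher in each genotype, and *Lmx1a* did not pass (-0.21 with adjusted p = 0.348 in *Usp15*-deficient and 0.0020 with adjusted p = 0.99 in wild-type mice). *Eomes* differed by -0.01 between *Usp15*-deficient and wild-type cerebellum. The fourth, *Sln*, also encodes the calcium pump regulator of muscle, and was lower in cerebellum in *Usp15*-deficient mice (-2.62, adjusted p = 0.000241 by limma), with a difference of -0.50 in the wild-type (adjusted p = 0.331) that passed after quantile normalization (-1.30, adjusted p = 0.036). In muscle *Sln* was 2.11 higher on average in *Usp15*-deficient than in wild-type mice, without overlap, at an unadjusted p of 0.00373 and an adjusted p of 1.0 by limma. Of all clusters in muscle 3.38% had every *Usp15*-deficient array above, and 3.09% had an unadjusted p under 0.05. *Sln* was singled out after its values were seen. By limma 0 of the 4 genes passed for genotype in either tissue. In cerebellum 0 of the 4 had an unadjusted p under 0.05.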
